A study of Drosophila melanogaster with 12 samples.

Results

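Ovaries of su(Hw) mutant females of the genotype called A2663/v were compared with ovaries of the wild-type strain Canton S, with 3 arrays for each. A gene entered the comparison when its brightest probe set that names that gene alone exceeded a log2 signal of 5 on at least 3 of these 6 arrays. This rule left 6026 of the 11982 genes with such a probe set. Each array held RNA from about 100 pairs of ovaries, taken from virgin females 4 to 6 h after eclosion, and the labels call the arrays of a genotype biological replicates. The study's design text places these ovaries before the stage at which egg chambers of su(Hw) mutants die.

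The A2663/v females carried su(Hw)[A2663] over a second su(Hw) allele, which the labels write as v in the source name and as su(Hw)[2] in the genotype, a difference the sources used here do not settle. Their X chromosome carried the marker alleles y[2] and w[67c23] together with ct[6] and f[1], and the chromosome with su(Hw)[A2663] also held the P element EPgy2 insertion EY02782 in CG6499, a gene now named Amt. Canton S carried none of these alleles. The series holds a further wild-type line, BL15598, of the genotype y[1] w[67c23] with the same P element insertion, and a further mutant, Pb/2, which has the same X markers as A2663/v and su(Hw)[e04061] over su(Hw)[2], each on 3 arrays. In A2663/v against Canton S alone, loss of Su(Hw) and these strain differences cannot be told apart, so levels in BL15598 and Pb/2 are set beside the main results.

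Su(Hw) is a DNA-binding zinc finger protein, best known for binding the gypsy retrotransposon, where it forms an insulator that keeps enhancers from acting on promoters across it. The alleles y[2], ct[6] and f[1] are gypsy insertions, and su(Hw) was named for suppressing the phenotypes of such insertions. Outside gypsy the protein binds many sites of the genome, and females that lack it are sterile because their egg chambers do not complete development. Rbp9, which encodes an RNA-binding protein of the ELAV family, is a known target that rises in the ovary when Su(Hw) is lost.

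Signals are the authors' background-corrected and normalised values on the log2 scale, on which a difference of 1 is a 2-fold change. A value of 5 was taken as the floor of measurement. Where all 3 arrays of the dimmer genotype lay under it, the fold is given as "at least", computed after values under 5 were raised to 5. Differences were tested with limma in a model of all 12 arrays, and a gene was called higher or lower when its change was at least 2-fold with a Benjamini-Hochberg adjusted p under 0.05. Errors beside a log2 change are the standard errors of that fit. Adjusted p-values come from it, with 3 arrays per genotype, except where arrays are said to be left out. Since these are bulk samples, fewer cells of a type and less RNA per cell cannot be told apart.

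Measures of array quality were compared between the genotypes. On average 38.01% of probe sets exceeded the floor in Canton S and 38.42% in A2663/v, and all 3 A2663/v arrays lay above all 3 Canton S arrays. Over the genes tested, replicates correlated at 0.974 to 0.992, and A2663/v with Canton S arrays at 0.922 to 0.942. The 3′ minus 5′ log2 difference of the GAPDH control probe sets averaged 2.16 for Canton S with an SD of 0.23 and 2.43 for A2663/v with an SD of 0.06 (n = 3 arrays each, exact two-sided permutation test, p = 0.2, 0.4 after adjustment over 6 measures, where 3 arrays against 3 cannot go below 0.1). Signals of the germline markers osk and orb were high on all 6 arrays, at 13.38 to 13.56 and 12.53 to 12.88, and the testis markers betaTub85D, can and Mst87F, the glial marker repo and the haemocyte markers Hml and He stayed under the floor on all 6. Of the other haemocyte markers, Pxn was over the floor on all 6 arrays and NimC1 on the 3 Canton S arrays only. The follicle cell marker tj was under the floor on all 6 arrays, although mirr, another follicle cell gene, was measured on each. Digestive enzyme signal was present on some arrays: the mean log2 signal of 6 gut markers was 2.28, 2.32 and 4.07 in Canton S and 7.06, 2.30 and 8.01 in A2663/v. Replicates 1 and 3 of A2663/v had all 6 markers over the floor and replicate 2 had none. Several results are also given without replicates 1 and 3. That fit keeps 1 A2663/v array, which is assumed to vary like the other groups, so its values describe replicate 2.

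The transcript of su(Hw) itself was at background in the mutant. Its log2 signal was 9.30, 9.19 and 9.13 in Canton S and 2.51, 2.63 and 2.52 in A2663/v, which is at least 18.5-fold lower (log2 change -6.65 ± 0.19, adjusted p = 7.41e-12). The 3 mutant arrays thus lay far below the wild-type arrays. The level in BL15598 was 8.89 and that in Pb/2 was 2.94 (means of 3 arrays, as are all values of these lines below).

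Of the genes named by the marker alleles, forked rose, cut was not called and the others were not measured. Signal of f, which encodes an actin-bundling protein of bristles, was 4.59, 4.43 and 4.50 in Canton S and 8.20, 8.26 and 8.09 in A2663/v, at least 9.09-fold higher (log2 change 3.68 ± 0.38, adjusted p = 5.43e-06). The other lines were divided likewise, at 4.60 in BL15598, which lacks f[1], and 8.72 in Pb/2, which carries it. A second f probe set stayed at background in both genotypes, at 1.95. The homeobox gene ct differed by -0.20 ± 0.23 (adjusted p = 0.58) and its arrays overlapped. The pigmentation gene y and Amt, an ammonium transporter gene, were under the floor on all 6 arrays, and w had no probe set of its own.

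The gene next to the P element was higher in both lines that carry the insertion. CG42404 lies immediately beside Amt in the gene order of the RefSeq table (Release 6 plus ISO1 MT). It read 2.75, 2.80 and 2.85 in Canton S, 5.67, 6.28 and 5.98 in A2663/v, 5.94 in BL15598 and 3.04 in Pb/2. The rise over Canton S (adjusted p = 1.46e-07) amounted to at least 1.97-fold, and the gene is no longer called when values under 5 are raised to 5. Among the other tested genes within 4 places of su(Hw), Amt, f and ct, the ATM kinase gene tefu, the chaperone gene Hsc70-4, Set, CG8915, CG8675 and CHES-1-like changed by between -0.26 and 0.26 with adjusted p-values of 0.144 to 0.884. Set8, a histone H4 lysine methyltransferase gene 4 places from su(Hw), was 9.83, 9.65 and 9.84 in Canton S and 8.92, 9.05 and 9.06 in A2663/v, a difference of -0.76 ± 0.13 (adjusted p = 0.000791) that is under the 2-fold minimum. Its level was 8.78 in BL15598 and 8.87 in Pb/2, so Canton S stood above the other lines. CHES-1-like, a forkhead gene, has a second probe set that read 7.01 in Canton S and 4.78 in A2663/v against 12.06 and 12.15 for the brightest.

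Across the ovary, 327 of the 6026 genes tested were called (5.43%), 173 higher in A2663/v (2.87%) and 154 lower (2.56%). Counts of called list members below are to be read beside these shares. The 3 A2663/v arrays lay above all 3 Canton S arrays for 168 of the 173 and below them for 152 of the 154, where 20.1% of all genes tested lay wholly above and 22.4% wholly below. Low signal was frequent among the rises, since 65 of the 173 were under the floor on all 3 Canton S arrays and 38 of the 154 falls were under it on all 3 A2663/v arrays. Such genes passed the filter only through the brighter genotype, so the filter fixed the direction of their change. After values under 5 were raised to 5, the rises had a median of 1.48 on the log2 scale, and 57 reached 4-fold and 20 reached 8-fold. The falls had a median of -1.27, and 22 reached 4-fold and 6 reached 8-fold. With no minimum fold, 736 genes were higher (12.2%) and 890 lower (14.8%).

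**Figure D1:**
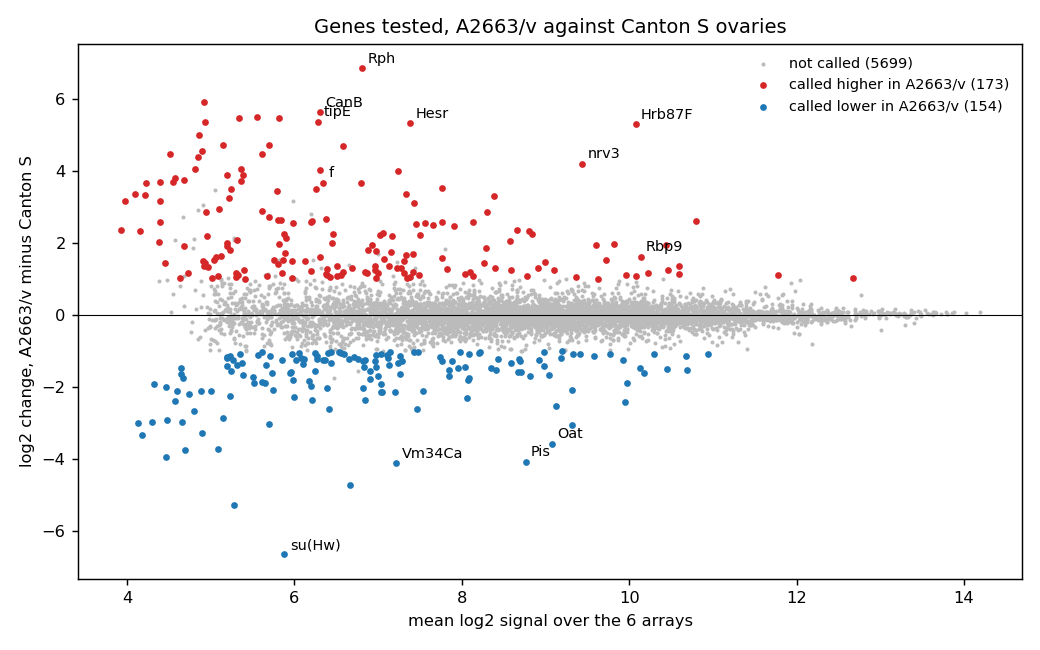
Log2 change of A2663/v minus Canton S (vertical axis) against the mean log2 signal over the 6 arrays (horizontal axis) for the 6026 genes tested, with genes called higher in red (173), called lower in blue (154) and the rest in grey. The largest changes sit at low and middle signal, with su(Hw) lowest at -6.65 and Rph highest at 6.86.

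Several of the largest rises were in genes known from neurons. Rph encodes rabphilin, a Rab effector of synaptic vesicles, and its signal was 3.49, 3.26 and 3.37 in Canton S and 9.98, 10.31 and 10.42 in A2663/v, at least 37.7-fold higher (log2 change 6.86 ± 0.23, adjusted p = 2.44e-11). It read 4.14 in BL15598 and 10.11 in Pb/2, so both mutants were high and both wild types under the floor. The same split held for tipE, which encodes an auxiliary subunit of the voltage-gated sodium channel and read 3.48, 3.42 and 3.88 against 8.83, 8.91 and 9.15, at least 15.6-fold higher (adjusted p = 1.05e-10). CanB, a regulatory subunit of the calcium-dependent phosphatase calcineurin, went from 3.40, 3.50 and 3.54 to 9.10, 9.16 and 9.11, at least 17.4-fold higher (adjusted p = 4.51e-12). The Na,K-ATPase beta subunit gene nrv3 was already measured in Canton S, at 6.89, 6.82 and 8.29, and reached 11.56, 11.42 and 11.64 (18.5-fold, adjusted p = 1.47e-06). Hesr, a transcriptional repressor of the HES family, rose from 4.01, 5.27 and 4.86 to 10.09, 9.96 and 10.08 (40.2-fold as measured, 31.0-fold with the floor, adjusted p = 3.45e-08). For tipE, CanB, nrv3 and Hesr the means were 3.81, 3.02, 6.18 and 3.22 in BL15598 and 8.96, 9.02, 11.49 and 8.14 in Pb/2.

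Most neuronal genes on the array were under the floor in these ovaries. Of 35 neuronal ion channel genes 9 passed the filter, with calls of a rise for 3 and of a fall for none. These were tipE, the sodium channel family gene NaCP60E, at least 8.33-fold higher, and the calcium-activated potassium channel gene SK, which went from 6.70, 6.40 and 6.56 to 7.88, 7.88 and 8.40 (adjusted p = 0.000665). Both tipE and NaCP60E passed the filter only through A2663/v, so they had to differ. The median change of the 9 tested genes was 0.75. At an adjusted p under 0.05 with no minimum fold, 6 of the 9 were higher and 1 lower, beside 12.2% and 14.8% of all genes tested. Over all 35 genes without the filter, most of them under the floor, the median was 0.00. NaCP60E differed from the rest in that BL15598, at 7.10, was close to both mutants while Canton S lay at 3.28 to 3.37.

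Of 31 genes of synaptic vesicles and active zones 14 passed the filter, 2 of them only through A2663/v (Rph and Nlg2). Among the 14, 3 rose, 11 were not called, and the median was -0.01. Besides Rph these were Nlg2, a neuroligin gene, from 3.49, 3.60 and 3.37 to 6.91, 7.36 and 6.74 (at least 4.00-fold, adjusted p = 8.46e-09), and lap, which encodes the AP180 adaptor of clathrin-mediated vesicle recycling. Signal of lap went from 6.64, 6.67 and 6.39 to 8.16, 8.42 and 8.25 (adjusted p = 5.91e-07), while its second probe set, at 7.28 in Canton S and 7.25 in A2663/v, gave a change of -0.04. Of 38 genes of transmitters and their receptors 4 passed the filter, 1 of them only through A2663/v (5-HT1A). The median of these 4 was 1.81, and that over all 38 without the filter, most of them under the floor, was -0.01. Calls of a rise were made for 3 of the 4: acetylcholinesterase (Ace), tyrosine decarboxylase (Tdc1) and the serotonin receptor gene 5-HT1A. Ace read 4.30, 4.73 and 5.68 in Canton S and 7.34, 7.57 and 7.62 in A2663/v (adjusted p = 5.38e-06). Tdc1 changed by 1.03 ± 0.17 (adjusted p = 0.000581) and was not called without replicates 1 and 3 of A2663/v (0.94), or without Canton S replicate 1. 5-HT1A, under the floor in Canton S, was at least 1.62-fold higher.

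Other neuronal lists moved little as groups. In axon guidance and adhesion 1 of 22 tested genes rose and 1 fell: dpr19, an immunoglobulin domain protein, went from 5.83, 5.63 and 6.14 to 8.96, 8.93 and 9.06 (8.67-fold, adjusted p = 4.53e-09), and the guidance ligand gene NetB went from 7.90, 7.78 and 7.78 to 6.57, 6.58 and 6.15 (adjusted p = 1.03e-05). Calcium signalling and Na,K-ATPase genes had 2 of 14 higher (nrv3 and CanB) with a median of -0.10. CanB passed the filter only through A2663/v, so it had to differ. Neural identity factors had 1 of 8 higher (Hesr) with a median of 0.11. Of 6 tested neuropeptide and processing genes limma called 0, with 2 higher and 1 lower at an unadjusted p under 0.05, where 17.2% of all genes tested were higher and 20.3% lower. Without A2663/v replicates 1 and 3 it called 1 higher and 1 lower. Notch pathway genes had 2 of 15 higher, both of the Enhancer of split complex, whose members answer to Notch. E(spl)m7-HLH went from 4.72, 5.15 and 4.60 to 6.79, 6.86 and 6.77 (adjusted p = 1.97e-06). E(spl)m2-BFM changed by 1.53 ± 0.36 (adjusted p = 0.00623) but by 0.95, and was not called, without A2663/v replicate 3. It was 0.91, and not called, without replicates 1 and 3. The neuronal markers nSyb and brp stayed under the floor on all 6 arrays.

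Rbp9 rose and its relatives did not. Signal of Rbp9, needed for the maturation of germline cysts, was 9.09, 9.36 and 9.52 in Canton S and 10.88, 11.02 and 10.96 in A2663/v (3.09-fold, log2 change 1.63 ± 0.10, adjusted p = 3.44e-08), with 9.27 in BL15598 and 11.06 in Pb/2. Its second probe set stayed at background, at 2.23 in each genotype, so the mean of both probe sets gives a change of 0.81, under the 2-fold minimum. The founding member elav, a neuronal gene, was measured at 6.33, 6.49 and 6.68 in Canton S and at 6.21, 5.84 and 5.77 in A2663/v, a change of -0.56 ± 0.17 (adjusted p = 0.0282) that is under 2-fold, and fne was under the floor on every array.

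The remaining large rises had no common list, and several set Canton S apart from all 3 other lines. Hrb87F, which encodes an hnRNP protein that binds pre-mRNA, was the largest after the floor: 8.04, 7.11 and 7.12 in Canton S against 12.75, 12.74 and 12.69 in A2663/v (39.6-fold, adjusted p = 2.44e-11). Its level was 12.69 in BL15598 and 12.69 in Pb/2, so the wild-type line with an intact su(Hw) was as high as the mutants. Elovl7, a fatty acid elongase gene, read 3.04, 3.02 and 3.15 in Canton S and 8.53, 8.62 and 8.54 in A2663/v (at least 11.8-fold, adjusted p = 1.04e-13), with 8.65 in BL15598. The transcription factor gene NFAT read 6.59, 6.59 and 7.01 against 10.18, 9.92 and 9.98 (9.85-fold, adjusted p = 7.11e-11), with 10.08 in BL15598. The same arrangement, with BL15598 near or above A2663/v, held for CG6171 (mean 8.60 in BL15598, 8.63 in A2663/v and 4.96 in Canton S) and for CG14715, a bright gene at 9.49 in Canton S, 12.10 in A2663/v and 12.21 in BL15598.

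The other genes among the 15 largest rises were high in both mutants and lower in both wild types. CG6329 went from 5.33, 5.40 and 4.97 to 9.25, 9.21 and 9.28 (16.2-fold, adjusted p = 4.43e-08), and a second probe set of it changed by 1.61. CG9813 was at least 9.85-fold higher, CG32017 at least 15.3-fold and CG17778 at least 9.99-fold, each with both mutants over log2 8 on average and both wild types under the floor. CG6836 went from 5.70, 5.86 and 6.43 to 9.53, 9.62 and 9.45 (adjusted p = 9.27e-10), with 7.02 in BL15598 and 8.71 in Pb/2. The odorant-binding protein gene Obp44a, from 6.16, 4.996 and 5.80 to 9.15, 8.75 and 9.18 (adjusted p = 5.49e-07), was intermediate, since BL15598 read 8.19 and Pb/2 read 9.71. Among the brightest rises the changes were small: CG5953 read 12.29, 12.13 and 12.05 in Canton S and 13.14, 13.23 and 13.24 in A2663/v (2.06-fold), and CG6357, CG4502 and Rbm13 were 2.21-, 2.58- and 2.38-fold higher. CG4502 read 10.97 in BL15598, nearer its mean of 11.27 in A2663/v than that of 9.91 in Canton S. CG6357 read 10.37 in BL15598 and 10.63 in Pb/2, beside 11.17 in A2663/v. Rbm13 and CG5953 read 8.06 and 9.98 in BL15598 and 10.94 and 12.78 in Pb/2. For CG5953 a second probe set changed by -0.29, and the call is lost without Canton S replicate 3.

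**Figure D2:**
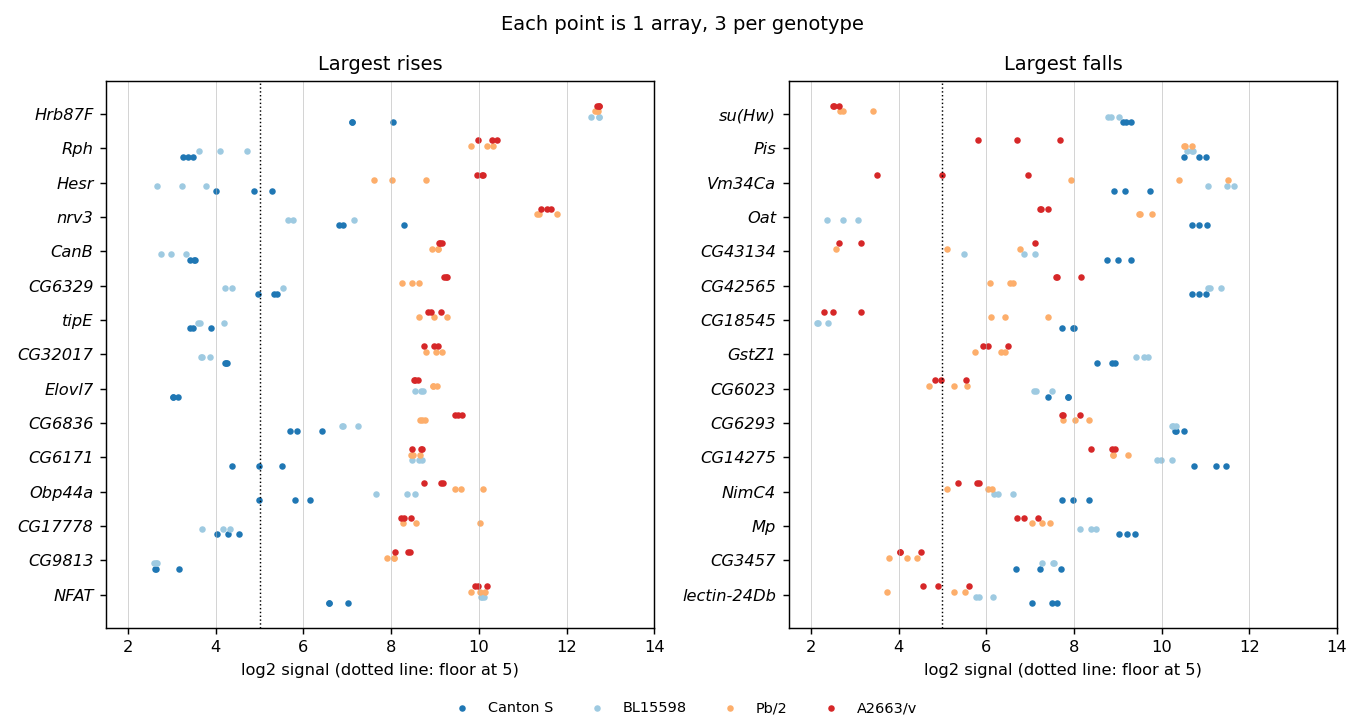
Log2 signal (horizontal axis) of the 15 largest rises (left) and 15 largest falls (right) in A2663/v against Canton S, ordered by the change after values under the floor at 5 (dotted line) were raised to it. Each point is 1 of 3 arrays of a genotype; for Hrb87F, Elovl7, CG6171 and NFAT the BL15598 points lie with the mutants, and for Pis the A2663/v points lie apart from all others.

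The largest fall after su(Hw) was in Pis, the phosphatidylinositol synthase gene. It read 10.51, 10.86 and 11.02 in Canton S and 6.70, 5.82 and 7.67 in A2663/v (16.8-fold lower, log2 change -4.07 ± 0.31, adjusted p = 2.03e-07). Both other lines stayed high, at 10.66 in BL15598 and 10.58 in Pb/2, so the fall was measured in A2663/v alone. It was also confined to 1 of 3 probe sets: the others changed by -0.24, at 5.52 in Canton S, and by 0.00, at background.

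Oat, which encodes the mitochondrial enzyme ornithine aminotransferase, fell from 10.86, 11.04 and 10.70 to 7.22, 7.25 and 7.42 (11.9-fold, adjusted p = 8.87e-10). Its level was lowest in the wild-type line BL15598, at 2.72, and 9.59 in Pb/2. CG18545 was under the floor in both A2663/v and BL15598, with 8.00, 7.98 and 7.73 in Canton S, 2.51, 3.13 and 2.29 in A2663/v (at least 7.50-fold lower, adjusted p = 9.7e-09), 2.24 in BL15598 and 6.65 in Pb/2. In the rest of the 15 largest falls, apart from Vm34Ca, both mutants were below both wild types on average. CG42565 went from 10.86, 11.001 and 10.69 to 8.17, 7.59 and 7.61 (8.32-fold, adjusted p = 7.07e-09), with 11.17 in BL15598 and 6.42 in Pb/2. GstZ1, a zeta-class glutathione transferase, went from 8.94, 8.86 and 8.53 to 5.93, 6.504 and 6.04 (6.12-fold, adjusted p = 1.48e-07), with 9.56 in BL15598 and 6.17 in Pb/2. CG6023, CG6293 and CG3457 had log2 changes of -2.60, -2.51 and -3.01.

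Mp, which encodes the collagen XV and XVIII homologue multiplexin, went from 9.22, 9.03 and 9.38 to 7.19, 6.70 and 6.85 (4.92-fold, adjusted p = 4.92e-08), with 8.34 in BL15598 and 7.26 in Pb/2. NimC4, a receptor for the uptake of dying cells, went from 7.73, 7.99 and 8.33 to 5.84, 5.36 and 5.78 (5.13-fold, adjusted p = 8.53e-06), with 6.35 in BL15598 and 5.76 in Pb/2. NimC1, another receptor of phagocytic haemocytes, went from 6.59, 6.64 and 6.57 to 4.85, 4.95 and 4.32 (at least 3.04-fold lower, adjusted p = 0.000466), with 5.19 in BL15598 and 4.19 in Pb/2. Pxn, the peroxidasin of basement membranes, went the other way, from 6.197, 6.26 and 7.01 to 8.46, 7.99 and 8.08 (adjusted p = 0.000309). Of 14 tested haemocyte and basement membrane genes, the other 12 were not called. The C-type lectin gene lectin-24Db changed by -2.36 ± 0.38 (adjusted p = 0.000409), with 5.92 in BL15598 and 4.84 in Pb/2. Without replicates 1 and 3 of A2663/v its change was -1.77 (adjusted p = 0.0532). CG14275 went from 10.75, 11.25 and 11.47 to 8.86, 8.39 and 8.95, with 10.05 in BL15598 and 9.01 in Pb/2. CG43134 rested on unequal arrays, with 9.30, 9.02 and 8.76 in Canton S and 3.15, 2.65 and 7.11 in A2663/v (adjusted p = 0.0042), and its log2 change was -6.13 without A2663/v replicate 3. Its mean was 6.49 in BL15598 and 4.82 in Pb/2.

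Of 12 yolk and eggshell genes tested, 5 fell in A2663/v, none rose, and 9 were lower at an adjusted p under 0.05 with no minimum fold, with a median of -0.58 against -0.01 over all genes tested. The vitelline membrane gene Vm34Ca, expressed in follicle cells, read 8.90, 9.75 and 9.17 in Canton S and 3.50, 5.001 and 6.96 in A2663/v (17.4-fold as measured, 12.3-fold with the floor, adjusted p = 0.00169). Its log2 change ranged from -5.02 without A2663/v replicate 3 to -3.30 without replicate 1, and both other lines were high, at 11.40 in BL15598 and 9.95 in Pb/2. psd, another vitelline membrane gene, went from 5.90, 6.35 and 5.58 to 3.46, 4.11 and 3.94 (at least 1.92-fold lower, adjusted p = 0.000404), with 7.78 in BL15598 and 6.29 in Pb/2. The protease gene ndl, whose product acts in eggshell and dorsoventral patterning, went from 9.06, 9.07 and 9.41 to 7.38, 7.64 and 7.92 (2.89-fold, adjusted p = 1.47e-05). Its groups did not overlap, and Pb/2 read 8.74.

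The yolk protein genes differed between the mutant arrays, with replicate 3 the highest for each. Yp3 read 9.11, 9.40 and 8.75 in Canton S and 7.61, 6.93 and 8.32 in A2663/v (adjusted p = 0.00598). Yp2 read 11.05, 11.28 and 10.59 against 8.71, 8.54 and 10.89, so replicate 3 overlapped Canton S. Its change of -1.59 ± 0.52 (adjusted p = 0.0358) was not called without A2663/v replicate 1 (-1.26, adjusted p = 0.145), without replicate 2 (-1.17, adjusted p = 0.145), or without Canton S replicate 1 (adjusted p = 0.0916) or 2 (adjusted p = 0.108). The call of Yp2 was lost in 10 of 24 alternative settings, among them the fit to these 6 arrays alone and that with digestive enzyme signal as a covariate. Yp1 differed by -0.52 ± 0.30 (adjusted p = 0.226), with replicate 3, at 11.73, above every Canton S array. The yolk receptor gene yl, expressed in the oocyte, read 10.75, 10.81 and 10.55 against 10.24, 10.11 and 10.13, a change of -0.54 ± 0.10 (adjusted p = 0.0015) that is under 2-fold. With replicate 2 as the only A2663/v array, the list counted 5 lower and none higher, with a median of -0.70.

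**Figure D3:**
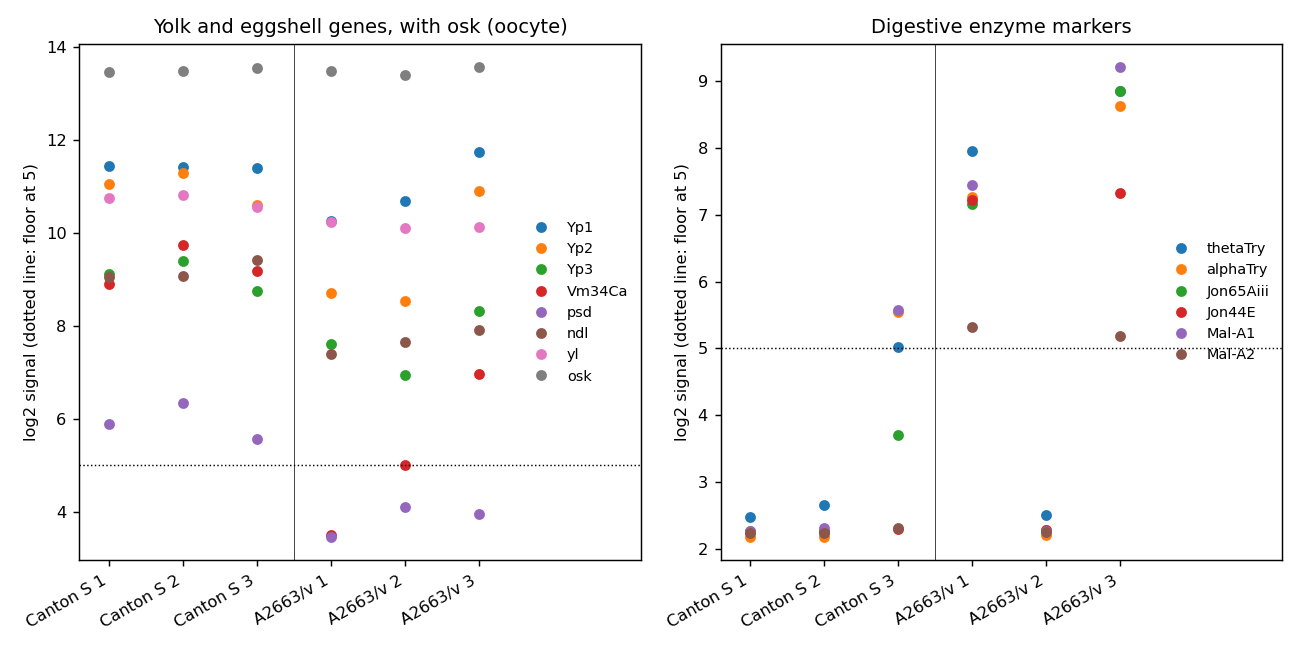
Log2 signal (vertical axes) on each of the 6 arrays for yolk and eggshell genes with the oocyte gene osk (left) and for 6 digestive enzyme markers (right); each point is 1 array and the dotted line is the floor at 5. The digestive markers are over the floor in A2663/v replicates 1 and 3 but not 2, whereas Vm34Ca, psd and ndl are lower on all 3 mutant arrays and osk stays between 13.38 and 13.56.

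Other ovarian lists held few calls, with medians of -0.14 to 0.10 beside -0.01 over all genes tested. In the piRNA list and in the cell cycle and replication list, rises outnumbered falls at an unadjusted p under 0.05. Over all genes tested falls outnumbered rises. Of 31 tested germline and oocyte genes 2 fell and none rose, with a median of -0.14. These were exu, whose product localises bicoid mRNA in the oocyte, from 8.99, 8.99 and 8.31 to 7.34, 7.34 and 7.30 (adjusted p = 5.43e-06), and plu, a regulator of the first embryonic cell cycles, from 7.53, 7.501 and 6.51 to 5.18, 5.14 and 5.33 (3.91-fold, adjusted p = 1.35e-05). In both the mutant arrays were nearly equal, and Pb/2 was low as well, at 7.51 for exu and 6.09 for plu. A second exu probe set was at background. The pathway that makes piRNAs, small RNAs that silence transposons in the germline, had 31 tested members of which limma called 0. At an adjusted p under 0.05 with no minimum fold, 11 were higher and 1 lower, beside 12.2% and 14.8% of all genes tested. At an unadjusted p under 0.05 the counts were 13 and 1, beside 17.2% and 20.3% of all genes tested. The median of the piRNA list was 0.10, and its changes ran from -0.58 to 0.64. Of 31 tested genes of cell cycle and replication limma also called 0, with 10 higher and 2 lower at an unadjusted p under 0.05 and a median of 0.08. It called 0 of 16 meiosis genes (4 higher and 4 lower unadjusted; 1 higher call without A2663/v replicates 1 and 3), 0 of 17 genes of muscle and ovarian sheath (1 and 3) and 0 of 26 proteasome genes (3 and 2), with medians between -0.07 and -0.01.

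Insulator proteins other than Su(Hw) were not called. Of 21 tested genes, su(Hw) was the only call and the median was 0.03. Its known partners in the gypsy insulator, mod(mdg4) and Cp190, changed by 0.33 (adjusted p = 0.0505) and 0.23 (adjusted p = 0.0584). The condensin subunit gene Cap-H2 had the largest rise of the list, 0.71 (adjusted p = 0.0162), which is under 2-fold.

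Small numbers of genes moved in the lists of egg chamber somatic cells and of cell death. Of 28 genes of follicle and border cells, the EGF receptor inhibitor gene aos rose from 5.83, 5.65 and 5.99 to 7.01, 7.39 and 7.16 (adjusted p = 6.79e-05) and mirr, a homeobox gene that patterns the follicle cells, fell from 8.46, 8.40 and 8.35 to 7.28, 7.40 and 6.72 (adjusted p = 3.69e-05). mirr was lowest in BL15598, at 4.41, and 8.11 in Pb/2, and a second probe set of it changed by -0.17. Of 17 tested genes of nurse cell actin and ring canals, Arpc1, a subunit of the Arp2/3 actin nucleator, rose at least 2.62-fold, from 3.04, 2.61 and 2.45 to 6.35, 6.54 and 6.29. Arpc1 passed the filter only through A2663/v, and its level was higher still in BL15598, at 8.53. Of 11 apoptosis genes, Buffy, of the Bcl-2 family, fell from 7.17, 6.95 and 7.12 to 6.14, 5.97 and 6.00 (2.06-fold, adjusted p = 0.000269), close enough to the minimum that the call is lost without Canton S replicate 1. Of 28 DNA damage and repair genes, mus101, the TopBP1 homologue, rose from 5.81, 5.77 and 5.85 to 6.96, 6.96 and 6.92 (adjusted p = 1.01e-05) and XRCC1 rose by 1.23 ± 0.25 (adjusted p = 0.00235), the latter with a change of 1.20 (adjusted p = 0.0655) without A2663/v replicates 1 and 3. Of 17 ecdysone genes, GstE14, which acts in ecdysteroid synthesis, fell from 10.02, 9.91 and 9.67 to 8.65, 8.13 and 7.83 (adjusted p = 3.03e-06) and ImpL2, an ecdysone-inducible binding protein for insulin-like peptides, changed by -1.13 ± 0.26 (adjusted p = 0.00508), not called without A2663/v replicate 2.

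Of 12 heat shock genes tested, 2 rose and none fell, with a median of 0.22. The inducible chaperone gene Hsp68 read 9.81, 8.86 and 9.70 in Canton S and 11.85, 11.06 and 11.34 in A2663/v (3.89-fold, adjusted p = 0.000216), and the co-chaperone gene stv read 9.16, 8.18 and 9.56 against 10.69, 10.11 and 10.67 (adjusted p = 0.00127). Both were also high in Pb/2, at 11.24 and 10.93. Under 2-fold, the small heat shock genes Hsp26 and Hsp27 changed by 0.97 and 0.90. Without A2663/v replicates 1 and 3, the change of stv was 1.14 (adjusted p = 0.105).

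Detoxification families held changes in both directions. Of 20 tested cytochrome P450 genes 2 rose and 4 fell, with a median of -0.21, and of 22 glutathione transferases 4 rose and 3 fell, with a median of 0.00. Over all genes tested 2.87% rose and 2.56% fell. Cyp6a17 and GstE7 passed the filter only through A2663/v, and Cyp6a20 only through Canton S. Cyp6a17 went from 2.35, 2.34 and 2.38 to 7.46, 7.38 and 7.26, at least 5.16-fold higher (adjusted p = 9.8e-11), with 2.37 in BL15598 and 5.85 in Pb/2. Cyp6a20 went the other way, from 7.17, 6.71 and 6.93 to 2.92, 3.42 and 3.34, at least 3.83-fold lower (adjusted p = 8.4e-09), with 6.59 in BL15598 and 3.16 in Pb/2. Cyp6a23, Cyp6a9 and Cyp4g15 fell by 1.64, 1.85 and 1.10 on the log2 scale. GstE1 rose from 8.97, 9.06 and 8.46 to 11.001, 10.63 and 10.80 (3.95-fold, adjusted p = 4.59e-08), but BL15598 was higher than either mutant, at 11.92 against 11.06 in Pb/2. GstE3, GstE7 and GstT4 also rose, GstE3 to a mean of 7.81 beside 7.79 in BL15598, and GstE10 fell with GstE14 and GstZ1. Without A2663/v replicates 1 and 3, the counts were 1 higher and 3 lower for the P450 genes and 2 higher and 2 lower for the glutathione transferases, and GstE3 changed by 0.72 (adjusted p = 0.111). Ugt35A1, the only called gene of 5 UDP-glycosyltransferases, crossed the floor narrowly, at 3.86, 4.39 and 4.17 against 5.34, 5.20 and 5.39 (at least 1.24-fold). Without A2663/v replicates 1 and 3 it had an adjusted p of 0.0697.

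Fat body genes were mixed, with 2 of 12 tested higher and 3 lower, or 1 higher and 2 lower without A2663/v replicates 1 and 3. Obp99a, an odorant-binding protein gene, rose from 11.17, 11.41 and 11.07 to 12.41, 12.37 and 12.25 (2.18-fold, adjusted p = 5.76e-07). Obp99b fell from 9.60, 8.09 and 9.21 to 7.13, 6.86 and 7.65 (3.38-fold, adjusted p = 0.002) and stayed at 9.43 in Pb/2. Fbp2 and fat-spondin fell by 1.47 and 1.56 on the log2 scale, fat-spondin to a mean of 5.47 beside 5.74 in BL15598. Without A2663/v replicates 1 and 3 the change of fat-spondin was -1.31 (adjusted p = 0.0655). Cyp4g1, a P450 of cuticular hydrocarbon synthesis, changed by 1.17 ± 0.34 (adjusted p = 0.0205) with overlapping arrays. Its call was lost in 9 of 24 alternative settings, and without A2663/v replicates 1 and 3 its change was 0.35 (adjusted p = 0.681). The 4 fat body markers Lsp2, Fbp1, apolpp and Yp1 were over the floor on all 6 arrays, with Lsp2 at 7.58 to 8.51 in Canton S and 7.06 to 7.96 in A2663/v. The part of fat body RNA in these results was not tested.

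Of 6 digestive enzyme genes tested, limma called 0, with 2 higher and 0 lower at an unadjusted p under 0.05. The markers alphaTry, thetaTry and Mal-A1 changed by 2.74, 3.05 and 2.93 with adjusted p-values of 0.288, 0.159 and 0.279, since replicate 2 of A2663/v stayed at background. Of the immune effectors, 1 of 8 tested genes rose: PGRP-SB1, an amidase that cleaves peptidoglycan, at 4.23, 6.01 and 3.21 against 6.63, 6.97 and 7.80 (adjusted p = 0.00237). Without A2663/v replicates 1 and 3 its change was 2.48, with an adjusted p of 0.0655.

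Ribosomal protein genes were nearly level except for single members. Among 36 tested cytoplasmic ones, 1 rose, RpS10a, at least 2.06-fold from below the floor, and the median was 0.07. Among 71 mitochondrial ones, 1 fell, tko, which encodes ribosomal protein S12 of the mitochondrion, from 10.44, 10.36 and 10.26 to 8.26, 8.41 and 8.16 (4.23-fold, adjusted p = 4.53e-09), and the median was -0.04. tko was low in both mutants, at 8.37 in Pb/2 against 10.48 in BL15598. Single calls were also made for the gap junction gene Inx7, among 5 innexins, and for vis, at least 1.22-fold lower, among 5 testis genes. Inx7 was 3.03-fold higher than in Canton S, with a mean of 8.57 that was close to the 8.68 of BL15598 and below the 9.61 of Pb/2. Of 6 serpins, 6 genes of the oviduct and spermatheca, 2 histones and 1 chorion gene limma called 0, with 1 higher and 1 lower, 2 and 1, 0 and 1, and 0 and 0 at an unadjusted p under 0.05.

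The brightest falls, apart from Yp2, were in 5 genes. slgA, the proline dehydrogenase gene, went from 11.48, 11.52 and 11.34 to 9.81, 10.05 and 9.94 (2.85-fold, adjusted p = 2.91e-09), with 11.46 in BL15598 and 10.79 in Pb/2. CG6398 went from 11.18, 11.35 and 11.09 to 9.73, 9.71 and 9.68 (adjusted p = 5.64e-09), with 11.32 in BL15598 and 9.56 in Pb/2. Jhbp14, named as a juvenile hormone-binding protein gene, was 2.19-fold lower than in Canton S, but BL15598, at 10.23, was as low as A2663/v. CG5335 and cue fell by 1.09 each on the log2 scale, and cue changed by -0.97 (adjusted p = 0.000163), just under the 2-fold minimum, without A2663/v replicates 1 and 3.

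**Figure D4:**
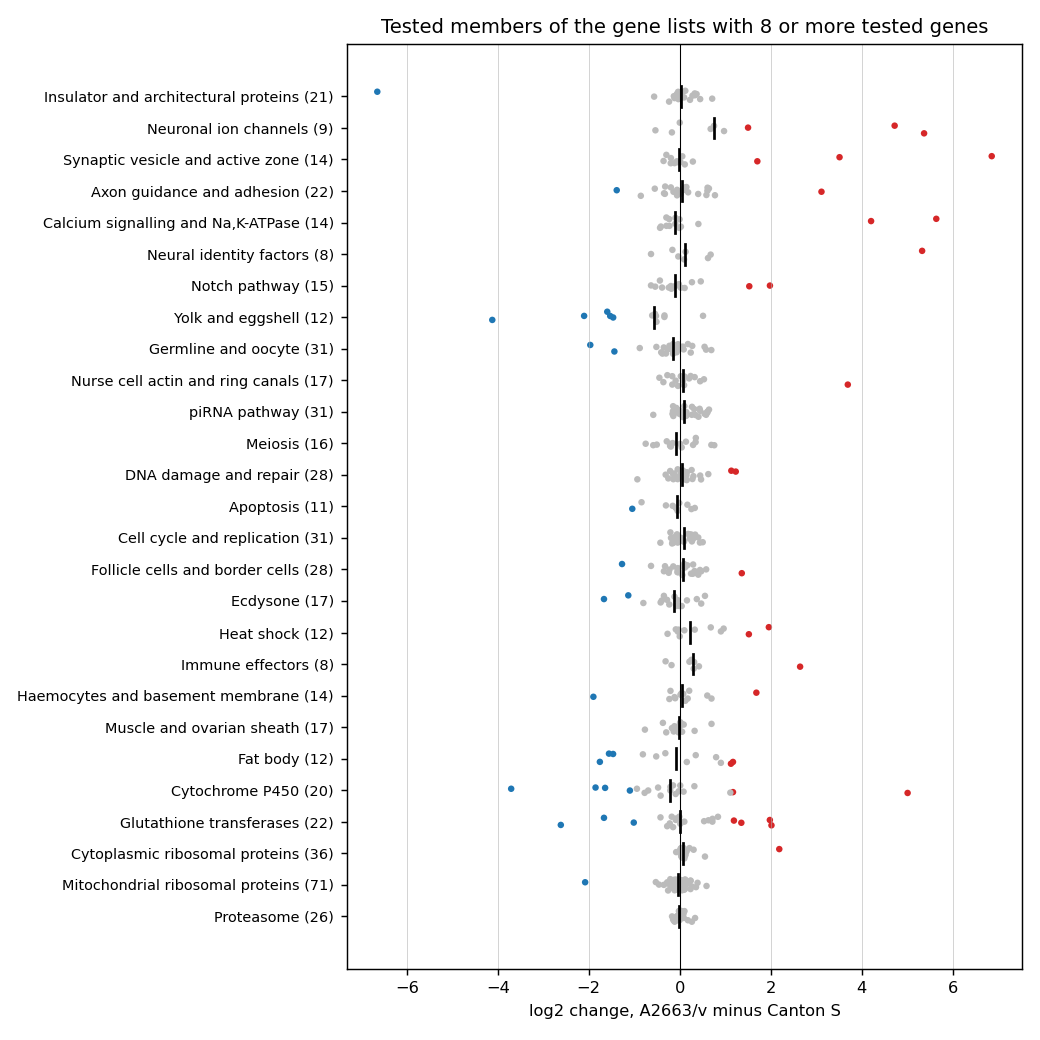
Log2 change of A2663/v minus Canton S (horizontal axis) for each tested member of the lists with 8 or more tested genes, with the number tested in parentheses; red points were called higher, blue points lower, grey points were not called, and black bars are list medians. Most members lie near 0 and single members of many lists lie far out; 77 of all genes tested passed the filter with no Canton S array over the floor, among them tipE, NaCP60E, Rph and Nlg2, and the yolk and eggshell median is -0.58.

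The other mutant against the other wild type, Pb/2 minus BL15598, shares no array with A2663/v minus Canton S. In that comparison 249 of the 6026 genes were higher (4.13%) and 180 lower (2.99%). Of the 173 genes higher in A2663/v 85 were also higher there, which is 49.1% of the 173 and 34.1% of the 249. Of the 154 lower, 62 were also lower there, 40.3% of the 154 and 34.4% of the 180. Among the 15 largest rises 11 were called the same way and among the 15 largest falls 9. Both comparisons set an X chromosome with y[2], ct[6] and f[1] against one without, so loss of Su(Hw) and these markers cannot be told apart by it. With replicate 2 as the only A2663/v array, 149 genes were higher and 143 lower, of which 139 and 131 were among those above, and 68 and 57 were called the same way in Pb/2 minus BL15598.

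A smaller set moved in opposite directions in these comparisons, 6 genes higher in A2663/v than Canton S but lower in Pb/2 than BL15598 and 16 the reverse. In 5 of them all A2663/v and BL15598 arrays lay above all Canton S and Pb/2 arrays, and in 11 they all lay below. These genes were picked by their opposite calls, which fixes that they do not follow su(Hw). A2663/v and BL15598 share the P element insertion, whose part in these levels was not tested. Among the 5 were CG42404, beside the insertion, PGRP-SB1, and alpha-Est7, an esterase gene, whose levels were 4.23 in Canton S, 4.34 in Pb/2, 6.15 in A2663/v and 7.47 in BL15598. Among the 11 were Oat, CG18545, CG17470, mirr and tut, a gene known from the differentiation of male germ cells, which read 8.61 in Canton S, 9.07 in Pb/2, 7.09 in A2663/v and 3.40 in BL15598. Arpc1 and GstE10 moved in opposite directions without such a clean division.

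**Figure D5:**
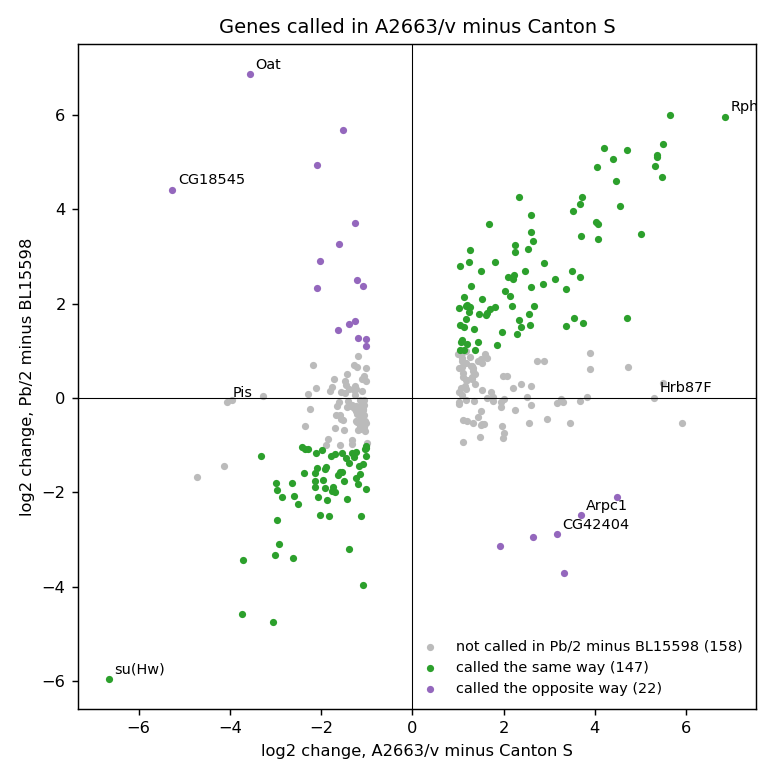
Log2 change of Pb/2 minus BL15598 (vertical axis) against that of A2663/v minus Canton S (horizontal axis) for the 327 genes called in the latter; green points were called the same way in both (147), purple the opposite way (22) and grey were not called in Pb/2 minus BL15598 (158). The comparisons share no array; Rph and su(Hw) lie at the far ends of the green points, and Oat and CG18545 lead the opposite ones.

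Directly tested against the other mutant, A2663/v differed in 114 genes (1.89%), 71 higher (1.18%) and 43 lower (0.714%). Among genes also higher than in Canton S, the largest differences from Pb/2 after the floor included wwk, which read 2.80, 2.73 and 2.85 in Canton S, 7.38, 7.70 and 7.45 in A2663/v and 4.55 in Pb/2, and lncRNA:CR32368, which read 4.66, 4.23 and 4.63, then 8.09, 8.19 and 7.75, with 5.42 in Pb/2. CG13403 was at least 4.40-fold higher than in Canton S and read 4.26 in Pb/2, under the floor. The receptor gene mthl8, of the methuselah family, and Fpgs1 were higher in A2663/v alone: mthl8 read 5.99, 6.13 and 5.77 in Canton S, 7.84, 7.88 and 7.99 in A2663/v, 5.66 in Pb/2 and 5.76 in BL15598, and Fpgs1 read 6.33, 6.14 and 6.39, then 7.67, 7.83 and 8.05, with 5.61 in Pb/2 and 6.17 in BL15598. Among genes also lower than in Canton S, CG17470 read 7.203, 6.57 and 6.59 in Canton S and 4.75, 4.64 and 4.71 in A2663/v, with 7.23 in Pb/2 and 2.28 in BL15598, and CR43790 read 7.71, 7.49 and 7.03 against 5.17, 5.57 and 5.40, with 7.56 in Pb/2 and 4.65 in BL15598.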

How the data were processed

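Ovary RNA of 4 genotypes with 3 replicates each was hybridised to Affymetrix arrays of 18952 probe sets. The values deposited by the authors are log2 signals made with Partek 6.5 and GCRMA, per the submitters' processing notes, in an order and with settings not given in the sources used here. They ran from 1.60 to 15.64. Genes of probe sets come from the platform annotation: 13647 name 1 gene, 402 several, 4720 have no entry and 183 are controls. Symbols of 13544 were updated through the RefSeq table and 103 kept. Where several probe sets name a gene (1094 genes), the brightest over the 6 arrays was used.

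A model with 4 genotype means and a variance trend was fitted with limma 3.58.1 in R 4.3.3 to all 12 arrays, over the 6026 genes tested. On simulated data with the spreads of these genes, 98% of 4-fold, 61% of 2-fold and 0% of 1.5-fold changes were called, and 0 of 5626 unchanged genes. The 2-fold minimum by itself keeps small changes from being called. Noise was drawn independently for each gene, without strain differences, so these shares are not error rates of the real comparison. The 40 gene lists hold 1505 entries; 20 of the 968 given by symbol matched no gene. The text names su(Hw) and the allele genes, the 15 largest rises and falls whose arrays do not overlap, the 6 brightest of each, up to 4 called members of a list with the largest changes, tested neighbours of the allele genes, the 6 largest differences from Pb/2 in each direction, and the ELAV family; others were named after their values were seen. The comparison, lists and rules were chosen with earlier results of these data known. Promoter motifs were not analysed here. Alternatives were other filters, a floor, probe set rules, normalizations, variance models, thresholds, a replicate block, a gut covariate and fits without single or gut-marked arrays.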

Additional observations from a re-analysis of the deposited data

Results flagged for a closer look

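For 24 of the named genes the change in A2663/v against Canton S differed from that in Pb/2 against Canton S, by limma's test of A2663/v minus Pb/2 over all genes tested. Since both changes are taken against the same Canton S arrays, their difference is that between the mutants, given here on the log2 scale. A2663/v was above Pb/2 by 3.44 in PGRP-SB1, 2.96 in wwk, 2.94 in CG42404, 2.88 in CG13403, 2.59 in lncRNA:CR32368, 2.24 in Fpgs1 and 2.24 in mthl8. Smaller differences of that direction were 2.19 in NetB, which fell less in A2663/v, 1.90 in Hesr, 1.51 in Cyp6a17, 1.43 in E(spl)m7-HLH, 1.37 in CG42565 and 1.27 in Ugt35A1. In the other direction the difference was -4.79 in Vm34Ca, -4.01 in CG18545, -3.85 in Pis, -2.52 in CG17470, -2.30 in Oat, -2.21 in Obp99b and -2.17 in CR43790. It was -1.70 in Fbp2, -1.23 in Cyp6a9, -1.09 in ndl and -1.04 in Inx7.

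The mutants differ by their su(Hw) alleles, by the P element in Amt and by whatever else the lines carry, which cannot be told apart here. BL15598 is the wild-type line with the P element. In CG42404, PGRP-SB1, Oat, CG18545, CG17470 and CR43790, all A2663/v and BL15598 arrays lay on the same side of all Canton S and Pb/2 arrays. For Inx7 the BL15598 mean also lay close to that of A2663/v and below that of Pb/2.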

How the results depend on the processing

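In 24 alternatives su(Hw) stayed lower. With other thresholds the counts were 350 higher and 354 lower at a 1.5-fold minimum, and 736 higher and 890 lower with no minimum fold. In the remaining alternatives the counts stayed within 140 to 227 higher and 124 to 189 lower. Leaving out single arrays gave 166 to 201 higher, 146 to 170 lower, and a su(Hw) log2 change of -6.69 to -6.60. With all 3 arrays of high digestive signal in these genotypes left out, an alternative added after seeing the data, 163 genes were higher and 161 lower. With the replicate number as a block 172 were higher and 154 lower. Same-numbered arrays deviated from their genotype means with correlations of -0.14, 0.43 and 0.33. Differently numbered arrays were not compared in this way, so whether the numbers pair the arrays was not settled. Of 95 named genes that were called, 70 stayed called in every alternative in which they were tested. Among these, Nlg2 and RpS10a were tested in 23 alternatives only. Direction reversed for lap (-0.0393) with the probe set chosen over 12 arrays, and for CHES-1-like (-1.07), not called in the report, with the mean of all probe sets. Averaging probe sets also ended the calls of Rbp9, CG5953, exu, mirr and Pxn. Raising values to the floor ended those of 5-HT1A, ImpL2, vis, Ugt35A1 and CG42404. It also took psd (-0.94) and Cyp4g15 (-0.95), which are outside the 95, under the 2-fold minimum. Signal near background limits the folds of the 65 rises and 38 falls with a side under the floor.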

Other observations

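Genes that crossed the floor of measurement between the genotypes were counted without a test. Of the 6026 genes tested, 77 were over log2 5 on all 3 A2663/v arrays and on no Canton S array, and 49 were over it on all 3 Canton S arrays and on no A2663/v array, while 5702 were over it on all 6.

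Digestive enzyme signal was present in other lines as well. The mean log2 signal of the 6 gut markers was 3.38, 4.83 and 2.48 in BL15598 and 6.91, 7.93 and 2.48 in Pb/2.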
